A study of Danio rerio with 16 samples.

Results

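The mitochondrially encoded genes of zebrafish testis are described here as the 37 rows of the deposited gene table that lie on the MT sequence, out of 32520 genes in all. They comprise 13 protein genes, 2 ribosomal RNA (rRNA) genes and 22 transfer RNA (tRNA) genes. Of the protein genes, 7 belong to respiratory complex I, 1 to complex III, 3 to complex IV and 2 to complex V. Membership follows from position on the MT sequence alone, with no threshold on any value.

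RNA was sequenced from whole testes of AB strain zebrafish in 4 groups of 4 libraries, which crossed ploidy (triploid, 3n, or diploid, 2n) with exposure to the synthetic estrogen 17α-ethinylestradiol (EE2). The groups were triploid EE2, triploid control, diploid EE2 and diploid control. The labels give neither the dose and length of the exposure, nor the age of the fish, nor how many fish a library holds. Replicates are separate libraries of a group, and nothing says that they came from separate fish, so the p-values speak only to how far these libraries spread, which may be technical. Triploid EE2 replicate 2 is called an outlier in its own title and was left out of the tests, which left 15 libraries and 3 in that group.

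In vertebrates, both strands of the mitochondrial genome are copied into long precursor RNAs, from which the tRNAs are cut out, releasing the rRNAs and messenger RNAs between them. The messengers encode core membrane subunits of the respiratory chain: complex I takes electrons from NADH, complex III passes them to cytochrome c, complex IV hands them to oxygen, and complex V makes ATP from the proton gradient. All other subunits, and the proteins that copy, cut, translate and degrade mitochondrial RNA, are encoded in the nucleus. In testis, mitochondria change shape and number along spermatogenesis, Leydig cell mitochondria start steroid synthesis, and the mitochondria of sperm are packed into the midpiece.

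Per the annotation of GRCz11, 12 of the protein genes, both rRNA genes and 14 tRNA genes lie on the plus strand. The minus strand holds mt-nd6 and 8 tRNA genes. The gene for the small rRNA, mt-rnr1 (ENSDARG00000082753, MT:1020-1971), follows directly on the phenylalanine tRNA gene trnF (ENSDARG00000083480, MT:951-1019), and the large rRNA gene mt-rnr2 (ENSDARG00000080337, MT:2043-3725) follows on the valine tRNA gene. Protein gene lengths ran from 165 bases in mt-atp8 to 1821 bases in mt-nd5, and tRNA genes spanned 68 to 77 bases. The counting rule drops read pairs on more than 1 gene. Genes that share bases or adjoin on 1 strand can therefore lose reads. On the same strand, mt-atp8 and mt-atp6 share 7 bases, as do mt-nd4l and mt-nd4, and no other such pair shares more than 2. The 4 bases shared by mt-nd5 and mt-nd6 lie on opposite strands, which the stranded counting keeps apart.

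Mitochondrial RNA took a small and similar share of the counted read pairs in 15 of the 16 libraries, and 1 diploid control stood far above them. The share was 2.14%, 3.01%, 2.47% and 1.63% in triploid EE2 replicates 1 to 4 and 2.13%, 2.40%, 2.67% and 2.52% in triploid controls. It was 2.30%, 2.53%, 2.67% and 2.25% in diploid EE2 libraries and 6.86%, 2.74%, 1.75% and 2.96% in diploid controls. The ranges of the 4 groups overlapped, and diploid control replicate 1 was above every other library. Its interval (95% Wilson, counting error only, since read pairs without molecular identifiers are not independent molecules) was 6.85% to 6.88%. The group means were 2.08% ± 0.427 in triploid EE2 (SD, n = 3), 2.43% ± 0.229 in triploid control (SD, n = 4), 2.44% ± 0.199 in diploid EE2 (SD, n = 4) and 2.48% ± 0.645 in diploid control without replicate 1 (SD, n = 3). With replicate 1 the diploid control mean was 3.58% ± 2.25 (SD, n = 4). The triploid EE2 mean leaves out replicate 2, the titled outlier. At 3.01% that library was above all others but diploid control replicate 1. Leaving it out lowered the triploid EE2 mean, which was the lowest of the groups either way.

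**Figure D1:**
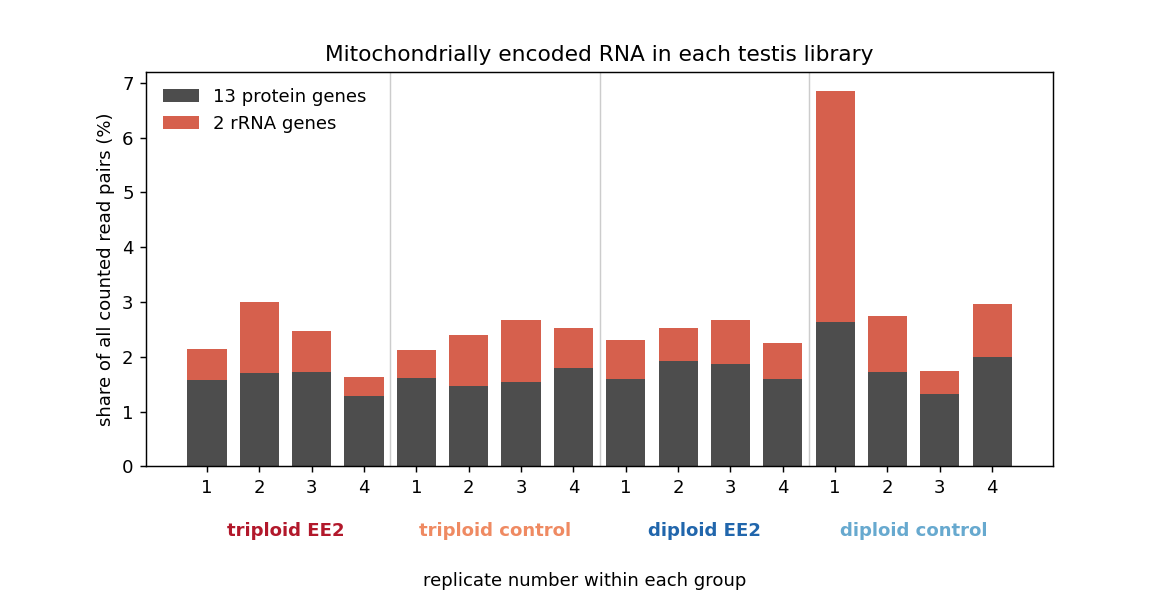
Share of all counted read pairs that fell on the 13 mitochondrial protein genes (grey) and the 2 mitochondrial rRNA genes (red), in percent, for each of the 16 libraries by group and replicate number; tRNA genes, at most 0.00517% of a library, are too few to draw. The red part of diploid control replicate 1 reaches 4.22%, against 0.347% to 1.30% in the other 15 libraries.

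The excess of diploid control replicate 1 lay mostly in rRNA. Its rRNA share was 4.22%, against 1.01%, 0.426% and 0.953% in diploid controls 2 to 4, and its protein-gene share was 2.63%, against 1.73%, 1.32% and 2.01%. It held 1.60 mitochondrial rRNA pairs for each mitochondrial protein-gene pair, and the other 15 libraries held 0.272 to 0.761. These libraries were depleted of rRNA before sequencing, so rRNA levels here are what the depletion left. The RNA of the signal recognition particle, rn7sl1, a short structured cytoplasmic RNA, took 13.3% of read pairs in that library and 4.71% to 7.77% in the others. Nuclear genes with a mean of at least 10 CPM (counts per 1000000 read pairs after TMM scaling) differed there by length. With 0.5 CPM added, their median log2 difference between replicate 1 and the mean of the other diploid controls was 1.72 over 209 genes with under 500 bases of exon, 0.98 over 738 genes of 500 to under 1000 bases, and −0.29 over 3900 genes of 4000 bases and over. Changes of the mitochondrial genes in comparisons that use diploid controls are therefore given with and without this library. Calls in the lists of nuclear genes that it decides are given by gene or by count. The part that its RNA makeup plays in them was not tested.

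Complex IV supplied most of the mitochondrial messenger reads. Its 3 genes made up 56.9% to 68.6% of the protein-gene read pairs across the 16 libraries, and the 7 genes of complex I made up 18.7% to 25.8%. The single gene mt-co1, whose protein carries the oxygen-reducing centre of complex IV, gave a median of 44.0% (range 40.5% to 53.4%) in 14 libraries, those of the tests without diploid control replicate 1. In diploid control replicate 1 it gave 25.9%. That library's other complex IV messengers were in turn above the range of the 14: mt-co2, whose protein takes electrons from cytochrome c, made up 19.03%, against 10.7% to 13.3%, and mt-co3, the remaining core subunit, 12.2%, against 3.53% to 5.62%.

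Levels per length were ordered in much the same way in every group. On the scale of read pairs per kilobase per 1000000 mitochondrial protein-gene pairs, medians over the 14 libraries were 283589 for mt-co1, 173810 for mt-co2, 104877 for mt-atp6, which forms the proton channel of complex V, and 89174 for its small partner mt-atp8. Below them came mt-cyb, the cytochrome b of complex III, at 70812, and mt-co3 at 55612. The complex I genes followed at 47592 for mt-nd1, 43381 for mt-nd4l, 35804 for mt-nd5, 33450 for mt-nd4, 30448 for mt-nd6, 27124 for mt-nd2 and 20754 for mt-nd3. Neighbours kept this order in all 14 libraries at 5 of the 12 steps: mt-co1 over mt-co2, mt-co2 over mt-atp6, mt-atp6 over mt-atp8, mt-nd4l over mt-nd5, and mt-nd2 over mt-nd3. At the other 7 steps the order held in 11 to 13 of 14 libraries, so those neighbours were not separated beyond their spread. The steps least often kept were mt-co3 over mt-nd1, mt-nd5 over mt-nd4 and mt-nd4 over mt-nd6, each in 11 of 14. Because read pairs on more than 1 gene are dropped, these levels hold only pairs assigned to a single gene. This bears most on short genes such as mt-atp8 (165 bases) and on genes that share bases. Such genes are mt-atp8 with mt-atp6, and mt-nd4l with mt-nd4. How far the rule shaped the order was not tested.

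**Figure D2:**
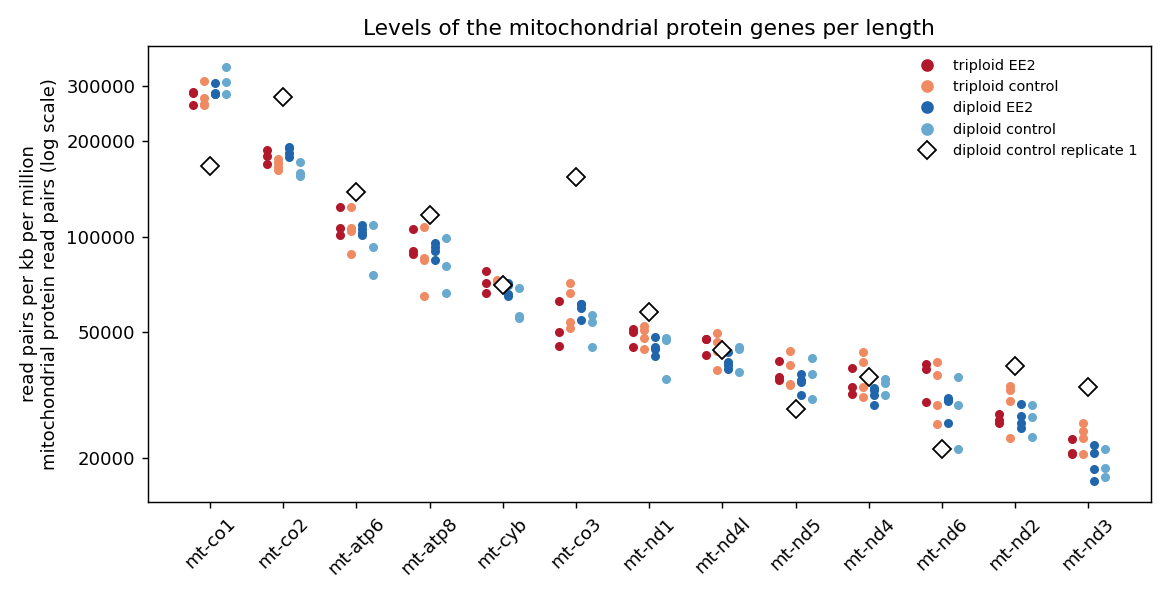
Read pairs per kilobase of gene per 1000000 mitochondrial protein-gene read pairs (log axis) for the 13 protein genes, ordered by their median, with 1 point per library of the 14 (colour gives the group) and a white diamond for diploid control replicate 1. The diamond lies below every point for mt-co1 and mt-nd5, level with the lowest point for mt-nd6, within the points for mt-cyb, mt-nd4l and mt-nd4, and above every point for the other 7 genes.

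Gene by gene, the difference between diploid control replicate 1 and the other diploid controls ran from 1.08-fold in mt-co1 to 6.02-fold in mt-co3 over the protein genes, with a median of 2.78-fold. It exceeded all other 15 libraries in CPM for 12 of 13 protein genes, the exception being mt-co1, and for 28 of all 37 mitochondrial genes. Among genes with at least 30 read pairs in the other diploid controls, both rRNAs and trnF, which lies next to mt-rnr1, were at the top of the range: 7.13-fold in mt-rnr1, 6.73-fold in mt-rnr2 and 7.26-fold in trnF. At the low end, mt-nd6 differed 1.56-fold and mt-nd5 1.65-fold. All these folds describe 1 library and carry no test.

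The complex IV messenger mt-co1 showed no separation of the groups. It had 6266, 7584 and 5396 CPM in triploid EE2 replicates 1, 3 and 4 and 7675 CPM in replicate 2, the titled outlier. Triploid controls had 7970, 5857, 6265 and 7475 CPM. Diploid EE2 libraries had 6627, 9378, 8235 and 6821 CPM and diploid controls 8694, 8053, 5478 and 10649 CPM. Here diploid control replicate 1 lay inside the range of its group, unlike in any other protein gene.

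The core subunit gene mt-co3 was the most variable messenger. Triploid EE2 libraries 1, 3 and 4 had 607, 840.1 and 434 CPM, and the titled outlier had 959 CPM. Values were 670, 751, 870 and 744 CPM in triploid controls, 649, 952, 904 and 731 CPM in diploid EE2 and 4084, 753, 441 and 842 CPM in diploid controls. Within groups its coefficient of variation was 60.5% with all 15 libraries and 23.6% without diploid control replicate 1. By the same measure mt-nd6, the complex I subunit from the minus strand, had 10.0% without that library and mt-nd5, an antiporter-like subunit, 10.8%, the lowest of the 13. For mt-nd6 the libraries held 307, 266 and 251 CPM in triploid EE2 1, 3 and 4, 253, 299.7, 294 and 235 CPM in triploid controls, 244, 266, 296 and 245 CPM in diploid EE2, and 372, 259, 234 and 221 CPM in diploid controls.

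Complex III is represented by mt-cyb alone. It had 1372, 1299 and 998 CPM in triploid EE2 replicates 1, 3 and 4, 1368, 1182, 1267 and 1466 CPM in triploid controls, 1139, 1465, 1520 and 1251 CPM in diploid EE2, and 2699, 1081, 983 and 1265 CPM in diploid controls. Without replicate 1, diploid controls overlapped every other group. Over the 14 libraries the remaining protein genes spanned 1484 to 2457 CPM for mt-co2, 849 to 1498 CPM for mt-atp6, 178 to 313 CPM for mt-atp8, 582 to 896 CPM for mt-nd1, 329 to 561 CPM for mt-nd2, 81.7 to 160.3 CPM for mt-nd3, 539 to 925 CPM for mt-nd4, 153 to 242 CPM for mt-nd4l and 805 to 1184 CPM for mt-nd5. For these 9 genes the highest library was 1.47 to 1.96 times the lowest.

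The rRNAs varied more than the messengers. The small rRNA mt-rnr1 had 2694, 3324 and 1542 CPM in triploid EE2 replicates 1, 3 and 4, 2232, 4234, 5182 and 2970 CPM in triploid controls, 3149, 3138, 3848 and 2967 CPM in diploid EE2, and 24896, 4255, 1998 and 4225 CPM in diploid controls. The large rRNA mt-rnr2 had 2804, 3975 and 1783 CPM in the same triploid EE2 libraries, 2961, 4850, 6222 and 4126 CPM in triploid controls, 3675, 3157, 4138 and 3375 CPM in diploid EE2, and 28969, 5633, 2027 and 5246 CPM in diploid controls. Both rRNAs thus had their highest value in diploid control replicate 1 and their lowest in triploid EE2 replicate 4. The within-group coefficient of variation was 31.3% for mt-rnr1 and 32.7% for mt-rnr2 without diploid control replicate 1. With the ratio of mt-rnr2 to mt-rnr1 between 1.01 and 1.42 in the 16 libraries, the large and the small rRNA moved together.

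**Figure D3:**
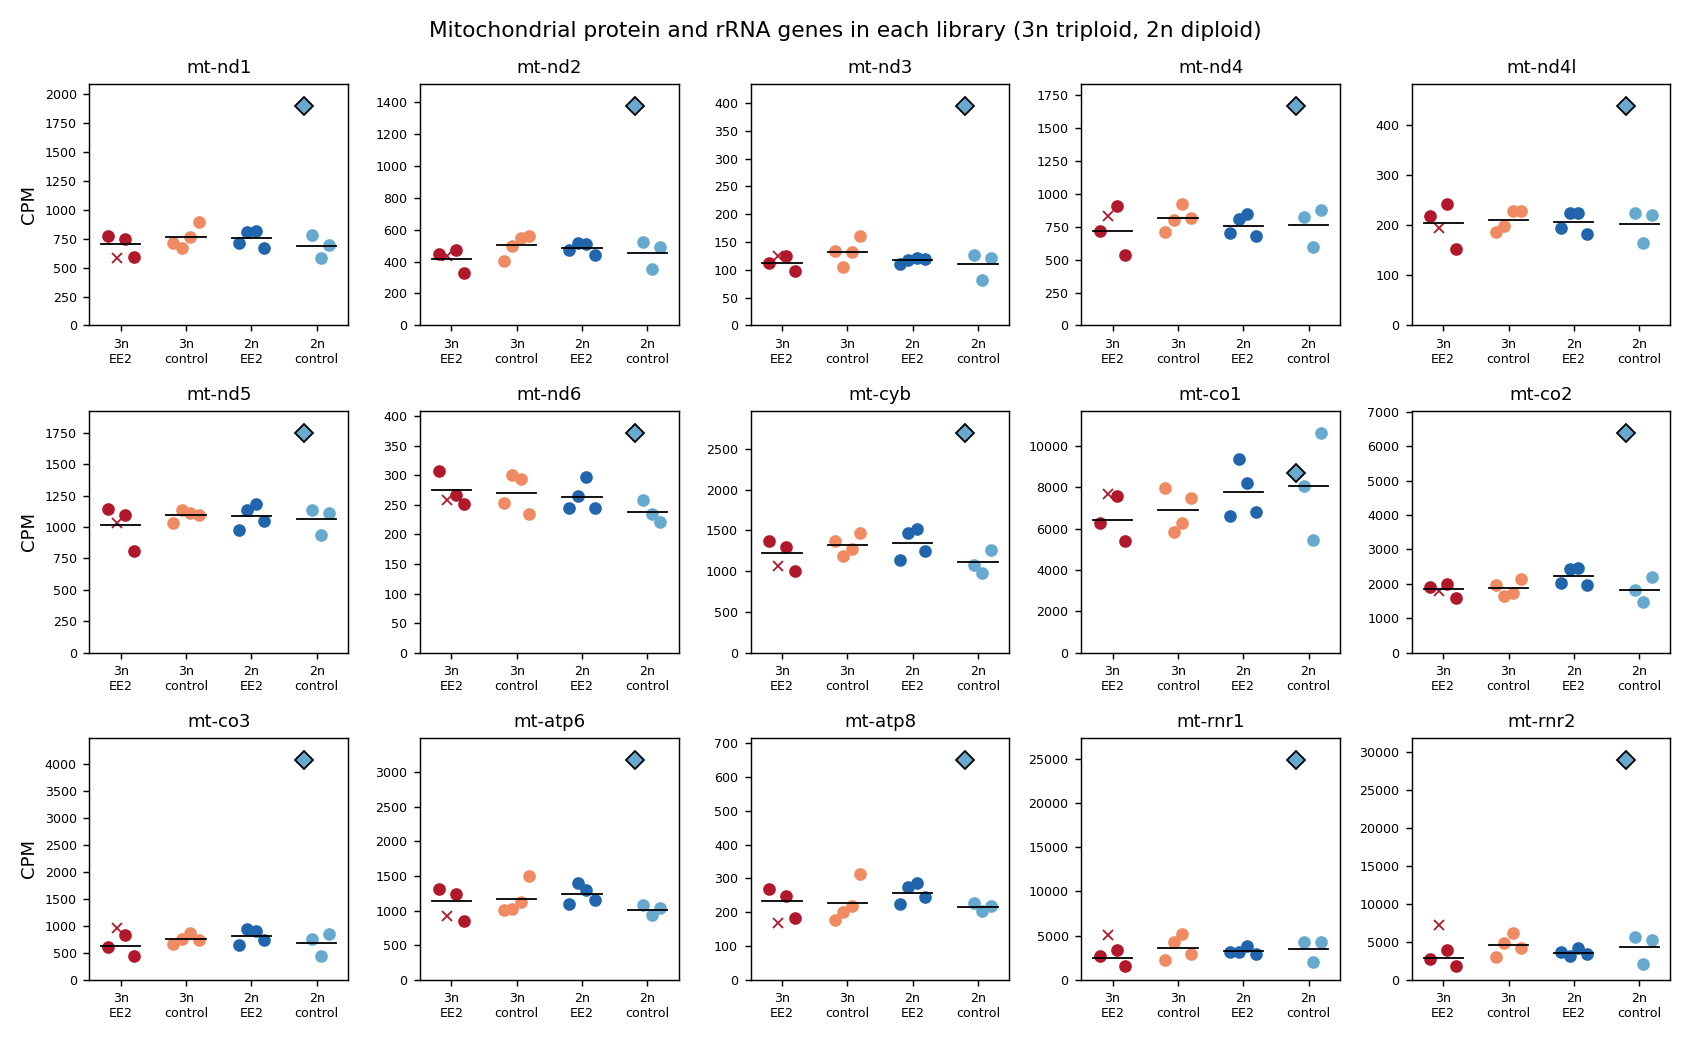
CPM of the 13 mitochondrial protein genes and 2 rRNA genes in each library (linear axes from 0; 3n, triploid; 2n, diploid), with points for libraries, a black-edged diamond for diploid control replicate 1, a cross for the titled outlier, and a line for the group mean without these 2 libraries. The diamond lies above all other points in every panel except mt-co1, where it lies below the highest diploid control.

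By Pearson's r, the relative levels of mt-co3, mt-nd2 and mt-nd4 rose with the amount of rRNA among the 14 libraries. Each protein gene was set against the geometric mean of the other 12 and compared with the log2 share of mitochondrial rRNA in the same library, which made 13 relations. As every gene is measured against the others, these relations are not independent of each other. Relative mt-co3 rose with the rRNA share (Pearson r = 0.77, permutation p = 0.00121, adjusted over the 13 relations 0.0157; Spearman rho = 0.66, permutation p = 0.0132, adjusted 0.0502). Removing the group means left r = 0.78, and leaving out the 2 libraries farthest from the median rRNA share left r = 0.52. Relative mt-nd2 also rose with it (r = 0.74, permutation p = 0.00249, adjusted 0.0162; rho = 0.75, permutation p = 0.00318, adjusted 0.0413), with r = 0.66 after removal of group means and r = 0.77 without the 2 farthest libraries. For mt-nd4 r was 0.70 (permutation p = 0.00597, adjusted 0.0259) and rho 0.70 (permutation p = 0.00718, adjusted 0.0467), with r = 0.77 after removal of group means and r = 0.79 without the 2 farthest. The other 10 genes did not pass the adjusted threshold, of which mt-cyb, with r = −0.59 (permutation p = 0.0245, adjusted 0.0798), was nearest by r; its rho was −0.64 (permutation p = 0.0154, adjusted 0.0502). With diploid control replicate 1 included (15 libraries), r was 0.93 for mt-co3, 0.82 for mt-nd2, 0.09 for mt-nd4, −0.66 for mt-cyb (adjusted permutation p = 0.0358, and 0.0178 for rho) and −0.76 for mt-nd6 (adjusted permutation p = 0.0214, and 0.25018 for rho). The relation of mt-nd4 was thus not seen with that library, and those of mt-cyb and, by r, mt-nd6 passed the threshold with it. All tests were two-sided with 100000 resamples, and both measures come from the same library, so they share its depth and RNA makeup.

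**Figure D4:**
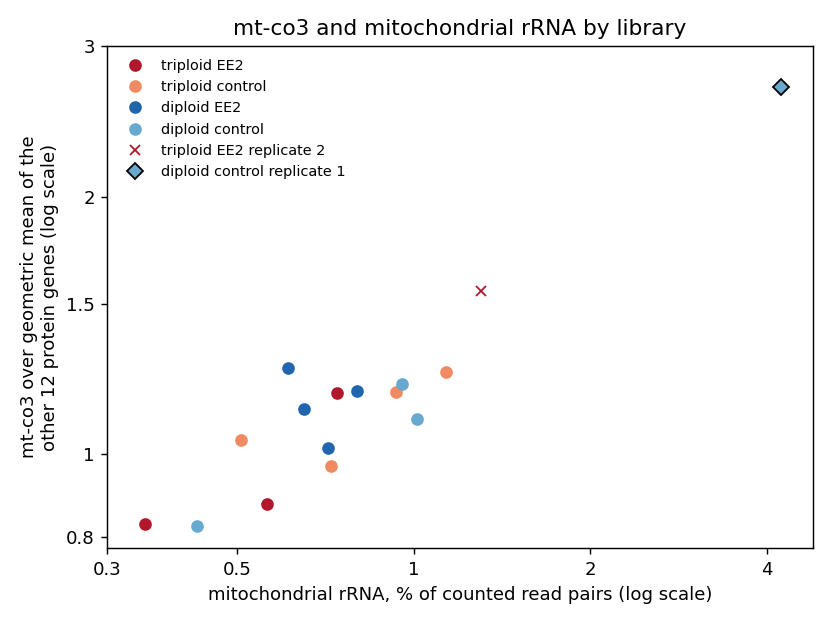
mt-co3 read pairs relative to the geometric mean of the other 12 mitochondrial protein genes (vertical, log axis) against the share of mitochondrial rRNA in counted read pairs (horizontal, log axis, percent), 1 point per library coloured by group. Relative mt-co3 runs from 0.824 to 1.26 in the 14 libraries, and stands at 1.55 in the titled outlier and 2.69 in diploid control replicate 1.

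Transfer RNAs were barely sampled. The 22 tRNA genes held 4097 read pairs in all 16 libraries together, and 10 of them were too low to be tested. The 5 with the most read pairs were trnF with 944, trnS1 (serine) with 610, trnR (arginine) with 298, trnQ (glutamine) with 276 and trnA (alanine) with 263. Read pairs that also fall on an adjoining gene of the same strand are dropped. The counts of tRNA genes therefore depend on their neighbours and do not rank the amounts of tRNA. The level of trnF was 5.80, 2.85 and 3.05 CPM in triploid EE2 replicates 1, 3 and 4, 5.10, 4.76, 4.85 and 3.94 CPM in triploid controls, 5.83, 5.15, 5.87 and 3.65 CPM in diploid EE2, and 28.0, 4.24, 3.97 and 3.35 CPM in diploid controls. Only diploid control replicate 1 stood outside the common range. That library did not stand apart in trnS1, where it had 3.66 CPM and diploid controls 2 to 4 had 5.02, 2.79 and 2.92 CPM. Lowest and highest values over the 14 libraries were 0.711 and 2.32 CPM for trnR, 0.642 and 2.71 CPM for trnQ, and 0.183 and 2.94 CPM for trnA.

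Ploidy in controls was the first comparison. No mitochondrial gene was called: 0 of 27 tested passed an adjusted p of 0.05 in edgeR's quasi-likelihood test with Benjamini-Hochberg adjustment over 23007 genes, where 2.74% of all genes tested did (0.574% higher and 2.16% lower). DESeq2 and limma-voom called 0 as well. An unadjusted p under 0.05 was seen for 1 of the 27 in edgeR, against 17.6% of all genes. All 13 protein genes had negative log2 changes, triploid minus diploid, with a median of −0.38 beside −0.04 over all genes tested, and they ran from −1.01 in mt-co3 to −0.004 in mt-nd6. Without diploid control replicate 1 the median was 0.15, 12 of 13 were positive, and the 95% intervals of the 13 genes lay between −0.66 and 0.68. By complex, medians with and without that library were −0.32 and 0.15 for complex I, −0.19 and 0.26 for complex III, −0.67 and 0.04 for complex IV, and −0.47 and 0.14 for complex V. The rRNAs had log2 changes of −1.27 (mt-rnr1, SE 0.60, adjusted p = 0.287) and −1.21 (mt-rnr2, SE 0.59, adjusted p = 0.306) with it, and 0.07 and 0.08 without it. The direction of every protein gene but mt-co1, and of both rRNAs, therefore rested on 1 library. For mt-co1 the change was −0.25 (95% interval −0.66 to 0.16) with it and −0.22 (−0.66 to 0.22) without it.

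EE2 in diploids gave the same picture on the side of the shared diploid controls. Again 0 of 27 genes were called by edgeR, DESeq2 or limma-voom, against 2.36% of all genes tested (1.94% higher and 0.422% lower). In edgeR 2 of 27 had an unadjusted p under 0.05, against 16.9% of all genes. These were the rRNAs, with log2 changes of −1.43 (mt-rnr1, SE 0.60, adjusted p = 0.246 in edgeR) and −1.55 (mt-rnr2, SE 0.60, adjusted p = 0.205 in edgeR). Without diploid control replicate 1 they were −0.10 and −0.27, with 95% intervals of −0.81 to 0.61 and −1.02 to 0.47. All 13 protein genes were negative with that library (median −0.34, beside −0.01 over all genes) and 11 of 13 positive without it (median 0.13). Among the protein genes, nearest to the threshold without it was mt-cyb, at 0.27 (95% interval −0.03 to 0.56, adjusted p = 0.342 in edgeR). The comparison of triploid with diploid controls uses the same diploid controls, so the similarity of both sets of values is no independent support for either.

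EE2 in triploids moved no mitochondrial gene past the threshold. It was 0 of 27 by edgeR, DESeq2 and limma-voom, against 0.104% of all genes tested (0.0609% higher and 0.0435% lower). In edgeR 2 of 27 had an unadjusted p under 0.05, against 5.42% of all genes. They were the methionine tRNA trnM (log2 change −1.65, adjusted p = 0.821 in edgeR), with 2 to 14 read pairs per library, and trnS1 (−0.58, SE 0.25, adjusted p = 0.84 in edgeR). Protein genes had a median of −0.11, beside 0.01 over all genes, with 11 of 13 negative, and no protein gene changed by more than 0.28 in size. The 95% intervals of the 13 lay between −1.48 and 0.93, and between −0.80 and 0.42 without diploid control replicate 1. Leaving out triploid EE2 replicate 4, which had the lowest mitochondrial share, put the median at 0.02. The rRNAs had values of −0.54 (mt-rnr1) and −0.67 (mt-rnr2), with 95% intervals of −1.92 to 0.85 and −2.05 to 0.71. In the fit without diploid control replicate 1 these intervals were −1.26 to 0.18 and −1.44 to 0.09. The titled outlier, not in these fits, had 5058 CPM of mt-rnr1 and 7161 CPM of mt-rnr2. With it the triploid EE2 means were 3155 and 3931 CPM, and without it 2520 and 2854 CPM. Triploid controls had means of 3655 and 4540 CPM, so the size of these rRNA changes depends on leaving that library out.

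Ploidy under EE2 was the comparison with the most calls among all genes, 5.82%, and again 0 of 27 mitochondrial genes were called by edgeR, DESeq2 or limma-voom. The unadjusted p in edgeR was under 0.05 in 2 of 27, against 19.6% of all genes: trnM (−1.82, adjusted p = 0.155) and trnT (−1.14, adjusted p = 0.215), both in edgeR. The protein genes had a median of −0.13, beside 0.00 over all genes, and ran from −0.37 in mt-co3 to 0.06 in mt-nd6, which alone was positive. Medians by complex were −0.07 for complex I, −0.14 for complex III, −0.28 for complex IV and −0.13 for complex V. Without triploid EE2 replicate 4 the median of the 13 was 0.01. Diploid controls enter this comparison only through the scaling and the shared estimate of spread, and without their replicate 1 the median was −0.11.

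The interaction, the EE2 effect in triploids minus that in diploids, had no called gene anywhere (0% of all genes tested by edgeR, 5.32% at an unadjusted p under 0.05; limma-voom also called none, and DESeq2 called 43 genes, none of them mitochondrial). The 13 protein genes had a median of 0.28 with diploid control replicate 1 and −0.24 without it, when all 13 were negative. Their 95% intervals then lay between −1.26 and 0.58.

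**Figure D5:**
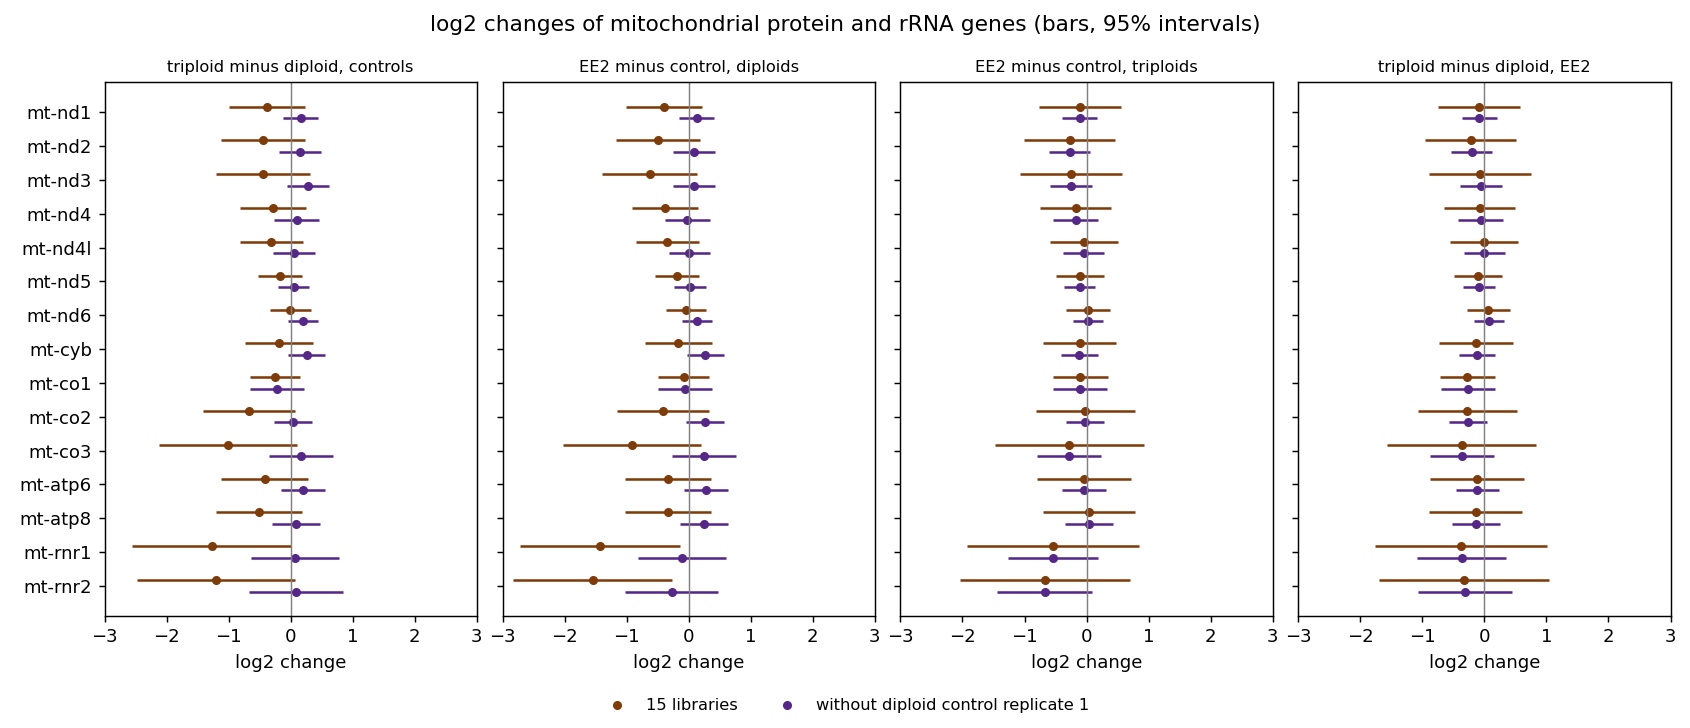
log2 changes (horizontal) with 95% intervals of 13 mitochondrial protein genes and 2 rRNA genes in 4 comparisons, with all 15 libraries (brown, upper of each pair) and without diploid control replicate 1 (purple, lower). In both comparisons that use diploid controls, the brown points of every gene lie left of 0 and nearly all purple points of protein genes lie right of it; in the other comparisons brown and purple points nearly coincide.

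The threonine tRNA trnT (ENSDARG00000083462, MT:16449-16520), which starts next to the end of mt-cyb on the same strand, was chosen for description after its values were seen. Its read pairs numbered 14, 4 and 5 in triploid EE2 replicates 1, 3 and 4 and 5 in the titled outlier, 18, 3, 3 and 7 in triploid controls, 10, 25, 22 and 13 in diploid EE2, and 10, 25, 13 and 21 in diploid controls. In CPM, the triploid libraries held 0.260 to 1.58 and the diploid libraries 1.27 to 1.96, and triploid control replicate 1 was the single triploid library inside the diploid range. The log2 change, triploid minus diploid, was −1.19 in controls (SE 0.45, adjusted p = 0.191 in edgeR) and −1.14 under EE2 (SE 0.50, adjusted p = 0.215 in edgeR). Without triploid control replicate 1 it was −1.997 in controls (adjusted p = 0.0175 in edgeR), the only call of a mitochondrial gene under any alternative run. Without diploid control replicate 1 the change in controls was −1.18 (adjusted p = 0.223 in edgeR). For its neighbour mt-cyb the changes were −0.19 in controls and −0.14 under EE2, neither called.

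Nuclear genes for the same machinery were counted from lists of subunits and factors, chosen with earlier results of these data known. In controls, triploid minus diploid, 1 of 38 complex I subunits rose and 0 fell. It was ndufv1, which holds the NADH-binding site, with 145, 145, 149 and 132 CPM in triploid controls and 102, 125, 93.6 and 94.8 CPM in diploid controls (log2 change 0.46, SE 0.11, adjusted p = 0.0348 in edgeR). Of all genes tested in this comparison, 2.74% were called, 0.574% higher and 2.16% lower. The call of ndufv1 remained without diploid control replicate 1 or 2 (0.46 and 0.53) and was lost without any other library of either group (0.42 to 0.49). Of 74 mitochondrial ribosome genes 1 rose: mrpl33, a large-subunit protein, with 41.6, 31.7, 28.4 and 26.2 CPM in triploid controls and 17.5, 19.9, 21.8 and 19.2 CPM in diploid controls (0.71, SE 0.15, adjusted p = 0.0161 in edgeR). It was lost without triploid control replicate 1 (0.53) or diploid control replicate 4 (0.69). Of 28 glycolysis genes 1 fell, the aldolase gene aldoaa, to 74.6, 78.0, 91.8 and 82.4 CPM in triploid controls, against 175, 119.7, 161 and 128 CPM in diploid controls (−0.84, SE 0.20, adjusted p = 0.0356 in edgeR), a call that held only without diploid control replicate 2 among omissions of 1 compared library (−0.73 to −0.95).

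No member was called in controls among 5 complex II, 9 complex III, 16 complex IV and 16 complex V subunits, nor among 31 genes of mitochondrial transcription and RNA processing, 2 of RNA decay, 11 of mtDNA replication, 23 of mitochondrial mass and import and 16 biogenesis regulators. The lists for complexes I, IV and V, mtDNA replication and the mitochondrial ribosome had lower medians with diploid control replicate 1 than without it. Summed complex IV subunits reached 2138 CPM there, while the triploid controls ranged from 644 to 778 CPM and the diploid control minimum was 615 CPM. Their median log2 change, triploid minus diploid, was −0.61 with that library and 0.08 without it; for complex I the medians were −0.41 and 0.10, for complex V −0.33 and 0.15, for mtDNA replication −0.29 and 0.04, and for the mitochondrial ribosome −0.34 and 0.03. Complex II (−0.08 and 0.10) and complex III (−0.02 and 0.16) moved less. Lists of transcription and RNA processing (0.00 and 0.02) and of glycolysis (−0.06 and −0.01) hardly moved.

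With EE2 in diploids 1 of 241 tested genes of the mitochondrial lists was called, beside 2.36% of all genes (0.422% lower). It was phb2b, a prohibitin that scaffolds the inner membrane, 1 of 23 in mitochondrial mass and import. It fell to 18.3, 22.7, 19.7 and 16.6 CPM in diploid EE2, against 37.5, 31.1, 31.1 and 26.2 CPM in diploid controls (−0.69, SE 0.17, adjusted p = 0.0461 in edgeR). The call remained only without diploid control replicate 4 or diploid EE2 replicate 2 among the 8 compared libraries (−0.61 to −0.78). Without diploid control replicate 1 phb2b was at −0.61 (adjusted p = 0.0763 in edgeR), and 1 other gene was called in its place. This was cox4i2, an alternative complex IV subunit that in mammals is linked to low oxygen, which had 19.8, 13.7, 19.9 and 12.7 CPM in diploid EE2 and 17.1, 6.28, 5.90 and 7.33 CPM in diploid controls. Its log2 change was 0.88 with that library (adjusted p = 0.15 in edgeR) and 1.33 without it (SE 0.21, adjusted p = 0.00502 in edgeR). In the fit without that library 2.65% of all genes were called. No gene of the other mitochondrial lists or of glycolysis was called in diploids by either fit, and none of any of them in triploids.

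Under EE2, triploid minus diploid, cox4i2 fell, 1 of 16 in its list. The diploid EE2 libraries are those of the EE2 comparison in diploids, so its change in either comparison is no independent support for the other. This gene had 7.95, 5.61 and 7.82 CPM in triploid EE2 and 19.8, 13.7, 19.9 and 12.7 CPM in diploid EE2 (−1.21, SE 0.33, adjusted p = 0.0460 in edgeR). The change was −0.65 (adjusted p = 0.579) with the titled outlier included, and the call was lost without any 1 of the triploid EE2 libraries or without diploid EE2 replicate 1 or 3 (−1.06 to −1.30). The ring subunit gene atp5mc3a of complex V rose, 1 of 16, with 74.0, 59.2 and 62.8 CPM in triploid EE2 and 38.1, 48.7, 44.7 and 41.9 CPM in diploid EE2 (0.59, SE 0.14, adjusted p = 0.0252 in edgeR). With the titled outlier it was 0.43 (adjusted p = 0.319), and the call was lost without triploid EE2 replicate 1 or 4 or diploid EE2 replicate 1 or 3 (0.49 to 0.62). In this comparison 4.77% of all genes fell and 1.05% rose. No other gene of the mitochondrial lists was called with all 15 libraries, 2 of 241 in all, and the interaction called none in either fit. Without diploid control replicate 1 the count was 7 of 241 (5 higher and 2 lower), where 9.28% of all genes were called. The 5 gained were polg, the mtDNA polymerase, and dguok, a deoxyguanosine kinase, of 11 in mtDNA replication; mfn2, a mitofusin of the outer membrane, and slc25a5, an ADP/ATP carrier, of 23 in mass and import; and mrps22, of 74 in the mitochondrial ribosome. In that fit polg (0.36), dguok (0.56), mfn2 (0.42) and mrps22 (0.47) were higher and slc25a5 (−0.30) lower in triploid EE2. Their changes with all 15 libraries were 0.34, 0.55, 0.41, 0.46 and −0.31 in the same order of genes, with adjusted p-values in edgeR from 0.0749 to 0.391.

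Markers of several cell types of the testis changed between the groups; their part in the mitochondrial values was not tested. In whole tissue, fewer cells of a type and less RNA per cell cannot be told apart. Summed markers of Sertoli cells were 386 to 583 CPM in triploid controls and 971 to 1483 CPM in diploid controls, with 3 of 6 lower, beside 2.16% of all genes: amh (−2.15), gsdf (−0.68) and fshr (−0.96). The call of fshr did not hold when diploid control replicate 1 was left out (−0.77, adjusted p = 0.0838 in edgeR). Leydig cell markers, of steroid-making cells, summed to 122 to 501 CPM in diploid EE2 and 916 to 3498 CPM in diploid controls, with 4 of 5 lower, led by cyp17a1 (−2.99), hsd3b1 (−3.22) and star (−2.40), beside 0.422% of all genes, and 3 of 5 without diploid control replicate 1. In triploids 2 of 5 fell with EE2 in both fits, cyp17a1 (−2.50) and hsd3b1 (−3.44), beside 0.0435% of all genes. Smooth muscle markers summed to 1460 to 1893 CPM in diploid EE2 and 415 to 728 CPM in diploid controls, with 4 of 4 higher in both fits, beside 1.94% of all genes. In triploids they summed to 669.6 to 803 CPM with EE2 and 339 to 418 CPM in controls. With all 15 libraries 0 of 4 were called, beside 0.0609% of all genes higher. Without diploid control replicate 1, 4 of 4 were higher, as were 24 of the 23008 genes tested. The marker acta2 was lower in triploid than diploid controls with that library (−0.88) and not called without it (−0.61, adjusted p = 0.0706 in edgeR). Under EE2, triploid minus diploid, 3 of 6 Sertoli and 4 of 4 smooth muscle markers were lower in both fits, beside 4.77% of all genes. In diploids EE2 also raised the liver marker vtg1 (8.65), 1 of 5 called, in both fits, beside 1.94% of all genes. Of the 4 spermatid and sperm flagellum markers, 1 was called higher in both fits, spata18 (0.78). It was the only positive one with all 15 libraries, where the list median was −0.15. Without diploid control replicate 1, 2 of 4 were positive and the list median was −0.01. In triploids vtg1 was at 7.61, called with all 15 libraries (adjusted p = 0.0493 in edgeR) and not without diploid control replicate 1 (adjusted p = 0.107 in edgeR). The erythrocyte marker hbaa1 had 415, 18.1, 22.5 and 23.4 CPM in diploid EE2 and 2.00 to 9.97 CPM in diploid controls, with diploid EE2 replicate 1 far above the other libraries; its change was 4.47, and 4.21 (adjusted p = 0.0948 in edgeR, not called) when diploid control replicate 1 was left out. Germ cell markers, at 2605 to 3643 CPM in all 15 libraries, had no called member, but without diploid control replicate 1 piwil1 was lower with EE2 in diploids (−0.35, adjusted p = 0.0377 in edgeR; −0.30, adjusted p = 0.144 with it). Markers of skeletal muscle and macrophages had no called member in either fit.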

How the data were processed

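Library totals ran from 7052508 to 17369549 read pairs. The deposited values are raw counts of read pairs per gene, which the authors made, per the file headers, with featureCounts 2.0.6 over exons on the reverse strand of STAR alignments (version not given in the sources used here), with the Ensembl 113 annotation of GRCz11. Its command as recorded leaves out multi-mapped read pairs and those on more than 1 gene. The deposited table also gives other values than counts, the exon length in bases.

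Counts were tested with edgeR 4.0.16 in R 4.3.3 (filterByExpr, TMM, glmQLFit with robust estimation, 1 mean per group, 15 libraries, 23007 genes tested, 27 of them mitochondrial), with Benjamini-Hochberg adjustment over all of them and calls at an adjusted p under 0.05. The procedure was tested on simulated counts with the same spread for all genes and no library standing apart. That test therefore does not speak to how the procedure handles diploid control replicate 1. DESeq2 1.42.0 and voom in limma 3.58.1 were alternatives. Standard errors are the absolute log2 change over the square root of F. Errors beside shares are SD over libraries.

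The 24 RNA genes carry no symbol in the name table used. They were named by the RefSeq gene with identical start and end, a match that held for all 37 genes and for the names of all 13 protein genes; the RefSeq table is of another assembly, so no coordinate was taken from it. The set of genes to describe and the lists were chosen with earlier results of these data known, although membership of the set follows from position. Of 336 list symbols, 311 were matched. Named were all protein and rRNA genes, any tRNA gene called, the 5 tRNA genes with the highest counts, and up to 3 called genes per nuclear list and comparison; trnT, trnM and the genes called only without diploid control replicate 1 are named beyond that rule, after their values were seen.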

Additional observations from a re-analysis of the deposited data

Results flagged for a closer look

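In groups of 4 libraries, 87 sets of values were examined for a library whose gap to its nearest neighbour exceeds Dixon's 95% critical share of the group's range, which chance exceeds in about 1 in 20 groups. Of the 14 that did, 13 were diploid control replicate 1. Its rRNA share was 4.22% (other diploid controls 0.426% to 1.01%) and its complex V share 0.30004% (0.120% to 0.133%). In CPM, with the other diploid controls in brackets, it had 24896 for mt-rnr1 (1998 to 4255), 28969 for mt-rnr2 (2027 to 5633), 28.0 for trnF (3.35 to 4.24), 4084 for mt-co3 (441 to 842), 6392 for mt-co2 (1484 to 2192), 3175 for mt-atp6 (933 to 1075), 651 for mt-atp8 (204 to 226), 1901 for mt-nd1 (582 to 779), 1375 for mt-nd2 (353 to 521), 395 for mt-nd3 (81.7 to 127) and 2699 for mt-cyb (983 to 1265). These values belong to 1 library and are not independent of each other. That library had been set apart before these sets were examined, so its flags are no separate finding. The remaining one was trnR in diploid EE2 replicate 1, with 0.948 CPM there and 1.73 to 1.88 CPM in replicates 2 to 4.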

How the results depend on the processing

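The count of called mitochondrial genes was 0 in every comparison under every alternative run, except ploidy in controls without triploid control replicate 1, where it was 1 (trnT); over omissions of 1 library it ran from 0 to 1 there and was 0 to 0 in the others. For the 13 protein genes and 2 rRNA genes, 2025 results under alternatives held 0 calls, with a lowest adjusted p of 0.0896. The median log2 change of the protein genes is the value that processing moved. The spread between replicates of their median level was 0.39 (SD of log2 CPM within groups). It was taken over all 15 libraries, with diploid control replicate 1, which stood far above its group, among them. Scaling to mitochondrial protein counts gave a median change of 0.045 for ploidy in controls, where the median of all genes was then 0.17 (−0.04 by TMM). As the scaling divides the protein genes by their own summed counts, their median was largely set in advance and is no test of their change. That scaling put the median of all genes at 0.08 (EE2, diploids), 0.12 (EE2, triploids), 0.23 (ploidy, EE2) and 0.04 (interaction). Of all genes it called 269 for ploidy in controls (21 higher), 232 with EE2 in diploids (204 higher), 23 with EE2 in triploids (18 higher) and 280 for ploidy under EE2 (23 higher); by TMM 132, 446, 14 and 241 were higher in these comparisons. Without the first library of each diploid group the median was 0.15 for ploidy in controls, 0.16 for EE2 in the diploid fish and −0.28 for the interaction. Scaling to mitochondrial protein counts and leaving out diploid control replicate 1, an alternative added once the data had been seen, gave 0.16 for ploidy in controls. The same limit of this scaling holds for that value. Over omissions of 1 library the median ran from −0.54 to 0.15 for ploidy in controls, from −0.50 to 0.13 with EE2 in diploids, from −0.17 to 0.02 with EE2 in triploids, from −0.23 to 0.01 for ploidy under EE2 and from −0.24 to 0.44 for the interaction; the positive ends of the first pair and the negative end of the last are the fit without diploid control replicate 1, and the other positive ends that without triploid EE2 replicate 4. The mitochondrial share of counts ran from 1.88% to 2.31% in triploid EE2, 2.35% to 2.53% in triploid control, 2.36% to 2.50% in diploid EE2 and 2.48% to 4.19% in diploid control over such omissions. Protein genes alone, as a share of counts outside mitochondrial rRNA and tRNA genes, took 1.54%, 1.62%, 1.76% and 1.96% in triploid EE2, triploid control, diploid EE2 and diploid control (1.70% without diploid control replicate 1). Replicate numbers did not pair the libraries: 2 of 21 same-numbered pairs had correlated deviations over 0.1 (−0.17 to 0.14). With the replicate block the medians were −0.27 (ploidy, controls), −0.25 (EE2, diploids), −0.12 (EE2, triploids), −0.21 (ploidy, EE2) and 0.13 (interaction), with 0 mitochondrial calls in each. Among all genes, the block gave 476, 407, 4 and 1104 calls in the first 4 of these comparisons, where the fit without it gave 630, 543, 24 and 1338, and DESeq2 gave 1227, 1207, 99 and 2095. Only 4097 read pairs were assigned to tRNA genes in all libraries, which limits what can be said of these genes.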
